A study of Mus musculus with 6 samples.

Results

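The genes described here are 37 interferon-stimulated genes, chosen by name from the 45777 genes that the study listed for mouse liver. All 37 were found, and all 37 passed the filter on low counts that kept 17274 genes. Liver RNA was sequenced from 3 LT and 3 Fpn-LKO mice, all male, of the strain C57BL/6 and fed a high-fat diet (HFD), with 1 library per mouse and the same batch in every label. Fpn, or Slc40a1, encodes ferroportin, the exporter that carries iron out of cells. Mice of both genotypes carried the floxed Fpn alleles, which came from a 129S line backcrossed to C57BL/6J, and the Fpn-LKO mice carried Alb-Cre in addition, a Cre recombinase under the albumin promoter that acts in hepatocytes. LT littermates lacked Cre, so the labelled genotypes differed in the transgene as well as in the deletion it was to make. The labels give no age. The RNA came from whole liver, which also holds Kupffer cells, endothelial cells and blood, and in which fewer cells of a type and less RNA per cell cannot be told apart.

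Interferons are secreted proteins that act through cell surface receptors and JAK kinases. Cells release those of type I and type III on sensing viral or bacterial nucleic acids. Type I and type III interferons activate a complex containing STAT2 and IRF9 that binds interferon-stimulated response elements, whereas interferon-gamma acts through gamma-activated sites. The genes induced in this way include sensors of foreign RNA and DNA, proteins that block viral translation and budding, GTPases that attack the vacuoles of intracellular pathogens, and the machinery of antigen presentation. Hepatocytes respond to interferons, as do the immune and endothelial cells of the liver.

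Total counts lay between 43086184 and 47778683 per library, and no pair of libraries of a genotype was a duplicate. Slc40a1, the gene that Cre was to delete, had 154, 180 and 126 CPM (counts scaled to a common library size, after TMM) across LT replicates 1 to 3, against 143, 143 and 176 CPM across Fpn-LKO replicates 1 to 3 (log2 fold change 0.0073, SE 0.16, Benjamini-Hochberg adjusted p = 0.995 in the quasi-likelihood test of edgeR). The libraries labelled Fpn-LKO thus showed no lower transcript count of this gene. The count covers the whole gene and all liver cells, and which exons Cre removes is not given in the sources used here. Every direction below rests on the labels. Summed over 6 hepatocyte markers (Alb, Apoa1, Ttr, Serpina1a, Cps1 and Cyp2e1), the level was 63356 to 78176 CPM in LT and 66336 to 73954 CPM in the Fpn-LKO-labelled libraries (exact two-sided permutation test, p = 0.9).

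Promoter sequences were examined first, since these genes are known by the elements that drive them. The RefSeq promoter table of GRCm38.p6, which gives 250 bases before and 50 bases after each start, held windows for 28 of the 37 genes and not for Rtp4, Mx2, Zbp1, Dhx58, Oas2, Iigp1, Usp18, Parp14 and Mx1. The core of the interferon-stimulated response element, searched as GAAANNGAA or its reverse complement TTCNNTTTC, was present in 18 of the 28 genes, which is 64.3%, against 8.56% of all 32851 windows and 9.76% of the 27025 genes in the table. The gamma-activated site, searched as TTCNNNGAA, which reads the same on both strands, was present in 8 of the 28 genes, which is 28.6%, against 8.30% of all windows and 9.55% of all genes. These letter matches describe the sequence and do not show binding. The 150 bases before the start are shown for Igtp and Irgm1, which are among the 3 genes with the smallest p-values in the comparison of genotypes (the third, Zbp1, has no entry), and for Isg15 and Rsad2, which had the widest spread between mice of a genotype. They read 5′ to 3′ along the gene, and capitals mark the matches.
Igtp (chr11:58199406-58199555, + strand): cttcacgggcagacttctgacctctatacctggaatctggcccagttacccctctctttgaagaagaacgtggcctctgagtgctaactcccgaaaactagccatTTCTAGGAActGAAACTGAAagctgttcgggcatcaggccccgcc
Irgm1 (chr11:48871421-48871570, - strand): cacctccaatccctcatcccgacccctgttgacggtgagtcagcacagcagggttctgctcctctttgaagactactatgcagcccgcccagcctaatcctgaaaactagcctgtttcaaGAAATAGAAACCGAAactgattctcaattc
Isg15 (chr4:156200819-156200968, - strand): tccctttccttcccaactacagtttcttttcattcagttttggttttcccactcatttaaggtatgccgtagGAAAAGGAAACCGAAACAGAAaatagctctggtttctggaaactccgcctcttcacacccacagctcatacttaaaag
Rsad2 (chr12:26456453-26456602, - strand): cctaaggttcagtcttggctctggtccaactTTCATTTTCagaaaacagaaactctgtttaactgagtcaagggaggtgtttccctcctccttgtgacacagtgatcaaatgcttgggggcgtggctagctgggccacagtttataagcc
Igtp held a gamma-activated site from -45 to -37 relative to the start and a response element core from -34 to -26. Irgm1 held a pair of overlapping cores from -30 to -16. Isg15 held a run of 3 overlapping cores from -78 to -58, and Rsad2 held a core on the opposite strand from -119 to -111. Overlapping cores were also present in Ifit1, Bst2, Oas1a, Oas3, Gbp3 and Eif2ak2, and in Bst2 a gamma-activated site overlapped a core. No match to either motif was found in the windows of Irf7, Irf9, Oasl1, Oasl2, Tap1, Psmb9 or Xaf1.

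The genes differed widely in their level per length. On the deposited TPM scale (transcript abundance corrected for gene length and scaled to the same total in every library), Iigp1, an immunity-related GTPase known to be expressed in resting liver, had the highest mean, 186 ± 30.6 TPM (SD, n = 6), with libraries from 152 to 236 TPM. No library of another member reached that range. Bst2, or tetherin, which holds budding virus at the cell surface, followed with 30.9 ± 10.1 TPM, and then Psmb8, a subunit of the immunoproteasome, with 24.9 ± 6.29 TPM, and Irgm1, a regulator of the immunity-related GTPases, with 23.4 ± 5.88 TPM. The libraries of these 3 genes overlapped, from 15.9 to 44.4 TPM for Bst2, from 14.3 to 32 TPM for Psmb8 and from 16.6 to 30.9 TPM for Irgm1, so their order was not resolved. Igtp, Psmb9, Irf1, Irf9 and Ifih1 came next, with means between 10.7 and 14.0 TPM and overlapping libraries. Other antiviral effectors had lower means than Bst2, such as Rtp4 with 8.27 TPM and Ifit3 with 5.44 TPM. Isg15, a ubiquitin-like modifier, had a mean of 2.84 TPM, Ifit1, which binds viral RNA, 2.93 TPM, and Rsad2, or viperin, 2.63 TPM. The lowest means were those of Oasl2 at 0.492 TPM, Mx1, a dynamin-like antiviral GTPase, at 0.436 TPM, and the oligoadenylate synthetases Oas2 at 0.290 TPM and Oas3 at 0.167 TPM.

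**Figure D1:**
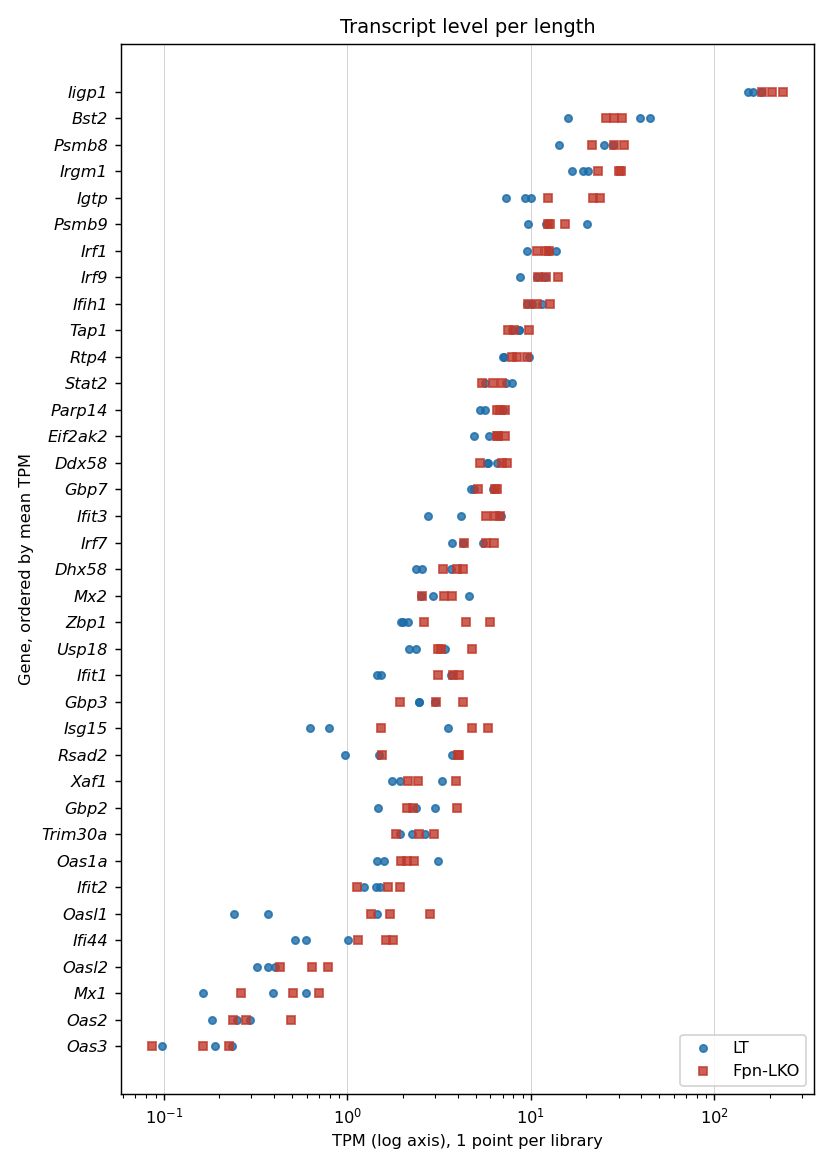
Deposited TPM of each of the 37 genes on a log axis, with 1 point per library, genes ordered by their mean over 6 libraries, circles for LT and squares for the Fpn-LKO-labelled libraries. Iigp1 stood apart between 152 and 236 TPM, and Oas3 was lowest with a mean of 0.167 TPM.

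The question of the design was whether the genotypes differed in these genes. With the quasi-likelihood test of edgeR and adjustment over all 17274 genes, 4 genes (0.0232%) had an adjusted p below 0.05, and none of the 37 interferon-stimulated genes was among them, the lowest adjusted p being 0.697 for Igtp. At an unadjusted p below 0.05, 4 of the 37 were higher in the Fpn-LKO-labelled libraries (Igtp, Zbp1, Irgm1 and Ifi44), against 2.62% of all genes, and 0 were lower, against 2.19%. In 4 of the 37, or 10.8%, every library labelled Fpn-LKO was above every LT library (Igtp, Zbp1, Iigp1 and Oasl2), against 5.25% of all genes, and in 0 every such library was below, against 5.34%. The estimated log2 fold change was positive for 29 of the 37 and negative for 8, with a median of 0.15 beside -0.0040 over all genes tested. These counts describe genes that were chosen with earlier results of these data known, and they are not a test. The 95% interval of the log2 fold change lay within 1 in either direction for 22 of the 37, or 59.5%, beside 59.0% of all genes, so a 2-fold difference was not covered by the intervals of these 22. Of 14 alternative settings, DESeq2's Wald test called 1 of the 37 (background 72 genes, 0.417%) and edgeR's exactTest called 1 (background 63 genes, 0.365%), which was Igtp in both.

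**Figure D2:**
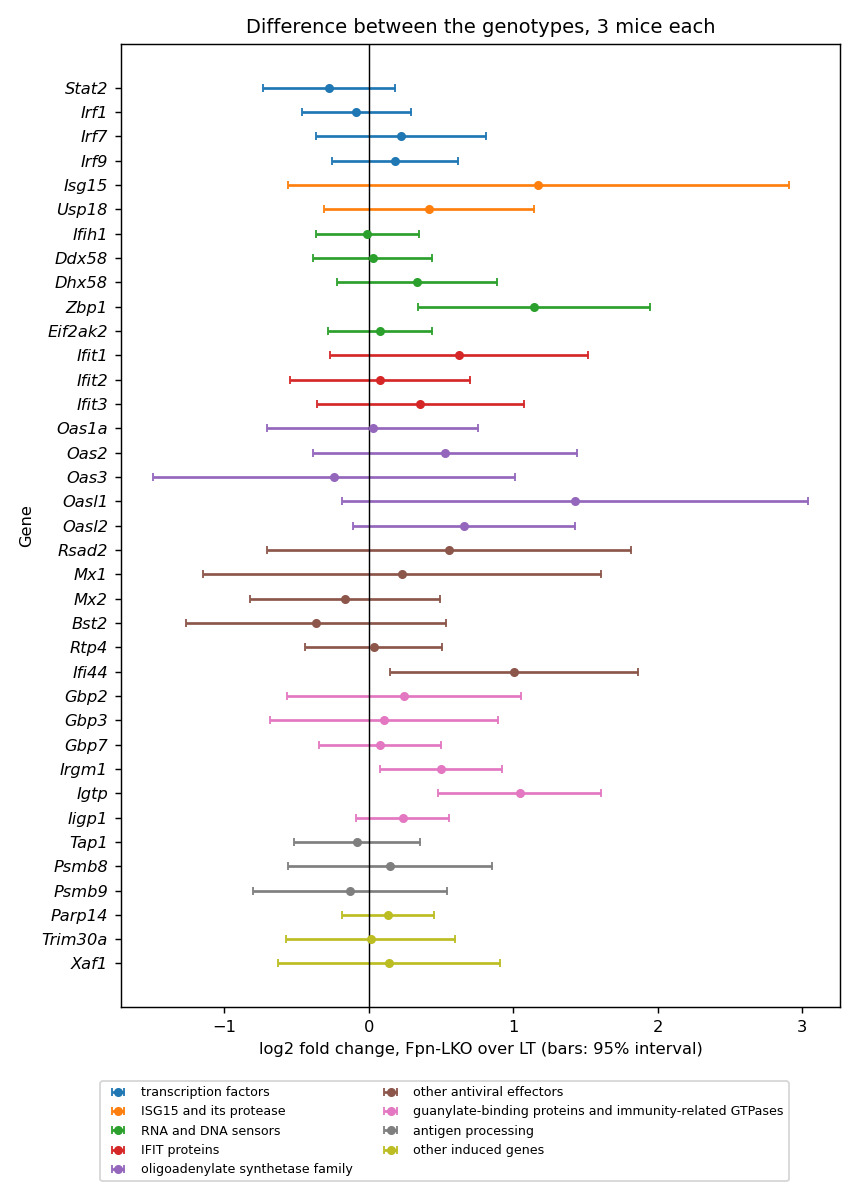
Log2 fold change of each gene, libraries labelled Fpn-LKO over LT, with its 95% interval from edgeR's quasi-likelihood test, 3 mice per genotype, coloured by role. The intervals of Igtp, Zbp1, Irgm1 and Ifi44 lay above 0, none lay below 0, and no gene had an adjusted p below 0.697.

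Of the 4 genes with an unadjusted p below 0.05, 2 encode immunity-related GTPases, Igtp and Irgm1. Igtp, or Irgm3 (chromosome 11, 58199556 to 58207592), a GTPase that guards self membranes against the effector GTPases, had 14.3, 15.0 and 12.8 CPM across LT replicates 1 to 3, against 38.7, 29.3 and 19.0 CPM across Fpn-LKO replicates 1 to 3. The lowest library labelled Fpn-LKO was above the highest LT library, and Fpn-LKO replicate 1 was highest. The means were 14.0 ± 1.10 and 29.0 ± 9.82 CPM (SD, n = 3 mice per genotype). This gave a log2 fold change of 1.05 (SE 0.24) and a 95% interval from 0.48 to 1.61 (edgeR's quasi-likelihood test, p = 0.00299 and adjusted p = 0.697; exact two-sided permutation test, p = 0.1, the smallest that 3 against 3 mice allow). The adjusted p was 0.0169 with DESeq2 and 0.0376 with exactTest, and ranged from 0.0169 to 1.0 over the alternatives.

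Irgm1 (chromosome 11, 48865245 to 48871420) had 29.2, 34.8 and 31.3 CPM across the LT mice and 51.6, 33.2 and 50.1 CPM across the Fpn-LKO-labelled libraries. Fpn-LKO replicates 1 and 3 were above all LT libraries, whereas replicate 2 fell among them. Its log2 fold change was 0.50 (SE 0.18, adjusted p = 0.982 by the same edgeR test, exact permutation test p = 0.2). Iigp1, or Irga6 (chromosome 18, 60373616 to 60392634), an effector of this family, had 409, 413 and 421 CPM across the LT mice and 461, 436 and 564 CPM across the Fpn-LKO-labelled libraries. The LT libraries lay close together and below all the others, and the difference was small, with a log2 fold change of 0.23 and a 95% interval from -0.09 to 0.56 (p = 0.134, adjusted p = 0.982; exact permutation test, p = 0.1). Of the guanylate-binding proteins, large GTPases that coat pathogen vacuoles, Gbp2 had a log2 fold change of 0.24, Gbp3 of 0.10 and Gbp7 of 0.08, each with overlapping groups and an interval that included 0. Leaving out Fpn-LKO replicate 1, in which Igtp and Irgm1 were highest, left Igtp and not Irgm1 at an unadjusted p below 0.05.

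Among the sensors of foreign nucleic acids, Zbp1 (chromosome 2, 173206612 to 173218959), which binds Z-form nucleic acids and can start necroptosis, had 1.12, 1.59 and 1.76 CPM across the LT mice and 2.096, 4.35 and 3.45 CPM across the Fpn-LKO-labelled libraries. The groups did not overlap, and the gap between the highest LT library and the lowest of the others was narrow. Its log2 fold change was 1.14 (SE 0.34, adjusted p = 0.982 by the same edgeR test and 0.187 with DESeq2, exact permutation test p = 0.1). The receptors of double-stranded RNA gave values near 0. Ifih1, or MDA5, had a log2 fold change of -0.01 with a 95% interval from -0.36 to 0.35, and Ddx58, or RIG-I, of 0.03 with an interval from -0.39 to 0.44. Eif2ak2, or PKR, which stops translation on binding double-stranded RNA, had 0.08 with an interval from -0.28 to 0.44. Dhx58, or LGP2, a relative of both receptors that lacks their signalling domain, had 0.33 with an interval from -0.22 to 0.89.

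In the oligoadenylate synthetase family, whose active members make a messenger that switches on RNase L, the counts were low. Oasl2 (chromosome 5, 114896926 to 114912245) had 0.82, 1.02 and 0.89 CPM across the LT mice and 1.09, 1.349 and 1.87 CPM across the Fpn-LKO-labelled libraries, without overlap (log2 fold change 0.66, SE 0.33, adjusted p = 0.982 by the same edgeR test, exact permutation test p = 0.1). Oasl1, which represses translation of Irf7, had the largest estimate of the 37, with 0.38, 2.56 and 0.73 CPM across the LT mice and 5.03, 1.97 and 2.84 CPM across the Fpn-LKO-labelled libraries. LT replicate 2 fell between the Fpn-LKO-labelled libraries, and the highest library stood 13.2-fold above the lowest. Its log2 fold change was 1.43 with a 95% interval from -0.18 to 3.04 (adjusted p = 0.982, exact permutation test p = 0.2). Oas1a had a log2 fold change of 0.03, Oas2 of 0.53 and Oas3 of -0.24, each with overlapping groups.

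Of the other antiviral effectors, Ifi44 (chromosome 3, 151730922 to 151749910) had 1.06, 2.29 and 1.47 CPM across the LT mice and 3.73, 2.18 and 3.77 CPM across the Fpn-LKO-labelled libraries. LT replicate 2 and Fpn-LKO replicate 2 were nearly level, and the others were apart by genotype. Its log2 fold change was 1.01 (SE 0.37, adjusted p = 0.982 by the same edgeR test, exact permutation test p = 0.2). Bst2 had the most negative estimate, with 9.16, 25.4 and 31.2 CPM across the LT mice and 16.6, 16.9 and 17.4 CPM across the Fpn-LKO-labelled libraries. The Fpn-LKO-labelled libraries lay close together inside the wide range of LT (log2 fold change -0.37, 95% interval -1.26 to 0.53, adjusted p = 0.991). Mx1 had a log2 fold change of 0.23, Mx2 of -0.17 and Rtp4 of 0.04, each with an interval that included 0.

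**Figure D3:**
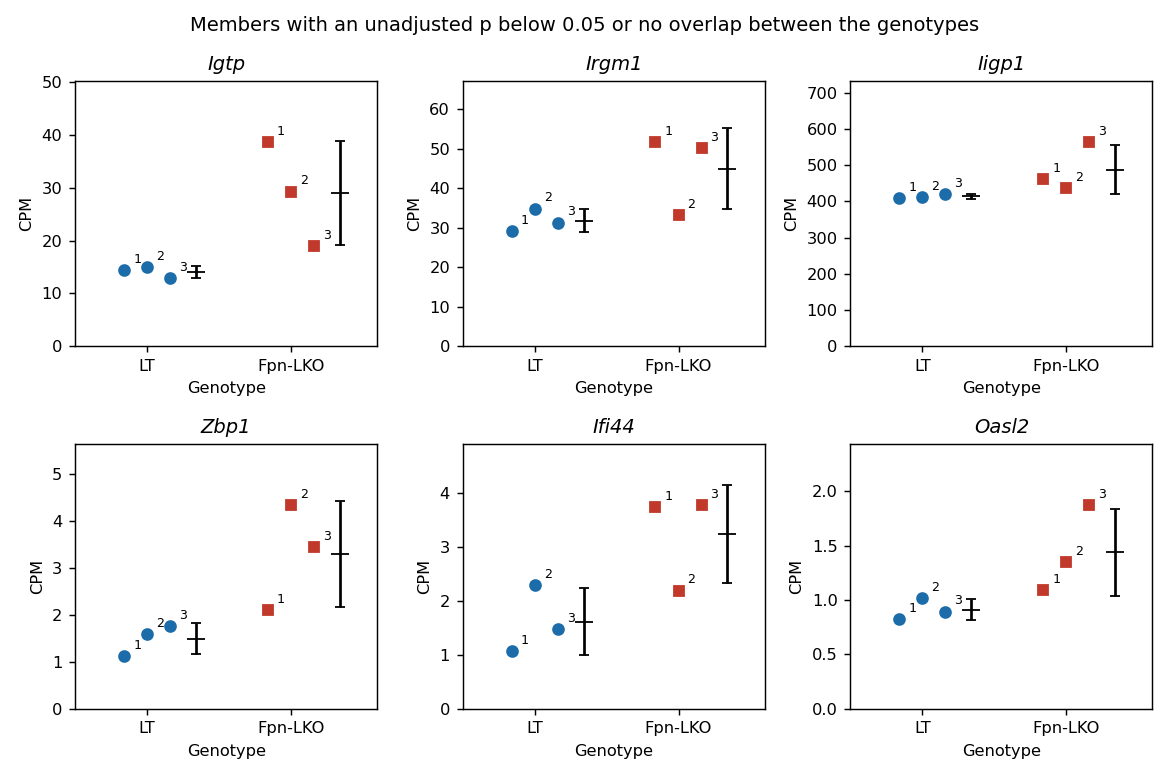
CPM in every library for the 6 genes with an unadjusted p below 0.05 or without overlap between the genotypes, with the mean and SD of 3 mice beside the points and replicate numbers at them. Igtp lay between 12.8 and 15.0 CPM in LT and between 19.0 and 38.7 CPM in the Fpn-LKO-labelled libraries, whereas Irgm1 and Ifi44 overlapped through Fpn-LKO replicate 2.

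The transcription factors that carry the interferon signal had estimates of either sign, each with a 95% interval that included 0. Stat2 (chromosome 10, 128270498 to 128292853) had 17.98, 28.3 and 28.4 CPM across the LT mice and 19.7, 18.5 and 23.4 CPM across the Fpn-LKO-labelled libraries. LT replicate 1 was below all the others, which placed the groups across each other (log2 fold change -0.28, 95% interval -0.73 to 0.18). Irf9, its partner, had a log2 fold change of 0.18 with an interval from -0.26 to 0.62, Irf7, which amplifies type I interferon production, of 0.22 with an interval from -0.37 to 0.81, and Irf1, which acts downstream of interferon-gamma, of -0.09 with an interval from -0.46 to 0.29. The intervals of all 4 lay within 1 in either direction.

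The genes of antigen processing also had estimates of either sign and intervals that included 0. Psmb8 (chromosome 17, 34198195 to 34201454) had 12.5, 24.5 and 29.97 CPM across the LT mice and 21.2, 23.2 and 29.6 CPM across the Fpn-LKO-labelled libraries, with LT replicate 1 lowest and the groups overlapping (log2 fold change 0.15, 95% interval -0.56 to 0.85). Psmb9, the neighbouring immunoproteasome subunit, had -0.13 with an interval from -0.80 to 0.54, and Tap1, a subunit of the peptide transporter, had -0.08 with an interval from -0.51 to 0.35. Parp14, an ADP-ribosyltransferase with 32.2, 42.1 and 39.3 CPM across the LT mice and 43.1, 37.03 and 44.4 CPM across the Fpn-LKO-labelled libraries, had 0.13 with an interval from -0.19 to 0.45. Trim30a, a TRIM family protein, had 0.01 and Xaf1, an antagonist of the apoptosis inhibitor XIAP, had 0.14.

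The spread between mice of a genotype was widest for Isg15, Rsad2 and Oasl1, which are induced by type I interferon. Isg15 (chromosome 4, 156199424 to 156200818) had 0.34, 2.12 and 0.53 CPM across the LT mice and 2.94, 2.93 and 0.88 CPM across the Fpn-LKO-labelled libraries. LT replicate 2 and Fpn-LKO replicates 1 and 2 were high and the other 3 libraries low, so that high and low libraries were found in both genotypes. The log2 fold change was 1.17 with a 95% interval from -0.56 to 2.91 (adjusted p = 0.982 by the same edgeR test, exact permutation test p = 0.2), and the highest library stood 8.6-fold above the lowest. Rsad2 (chromosome 12, 26442743 to 26456452) had 3.997, 11.2 and 3.21 CPM across the LT mice and 12.3, 10.3 and 4.42 CPM across the Fpn-LKO-labelled libraries. The same 3 libraries were high (log2 fold change 0.56, 95% interval -0.70 to 1.81, adjusted p = 0.991). Ifit1 (chromosome 19, 34640889 to 34650009) had 2.89, 7.76 and 3.34 CPM across the LT mice and 8.70, 6.66 and 6.21 CPM across the Fpn-LKO-labelled libraries. Here LT replicates 1 and 3 were low and the other 4 libraries high (log2 fold change 0.63, 95% interval -0.27 to 1.52, adjusted p = 0.982). Ifit3 had 6.01, 11.0 and 4.81 CPM across the LT mice and 10.9, 8.31 and 8.66 CPM across the Fpn-LKO-labelled libraries, with LT replicates 1 and 3 again the lowest. Usp18, which removes ISG15 from its targets and blocks the type I receptor, had a log2 fold change of 0.42 and Ifit2 of 0.08, with intervals that included 0.

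**Figure D4:**
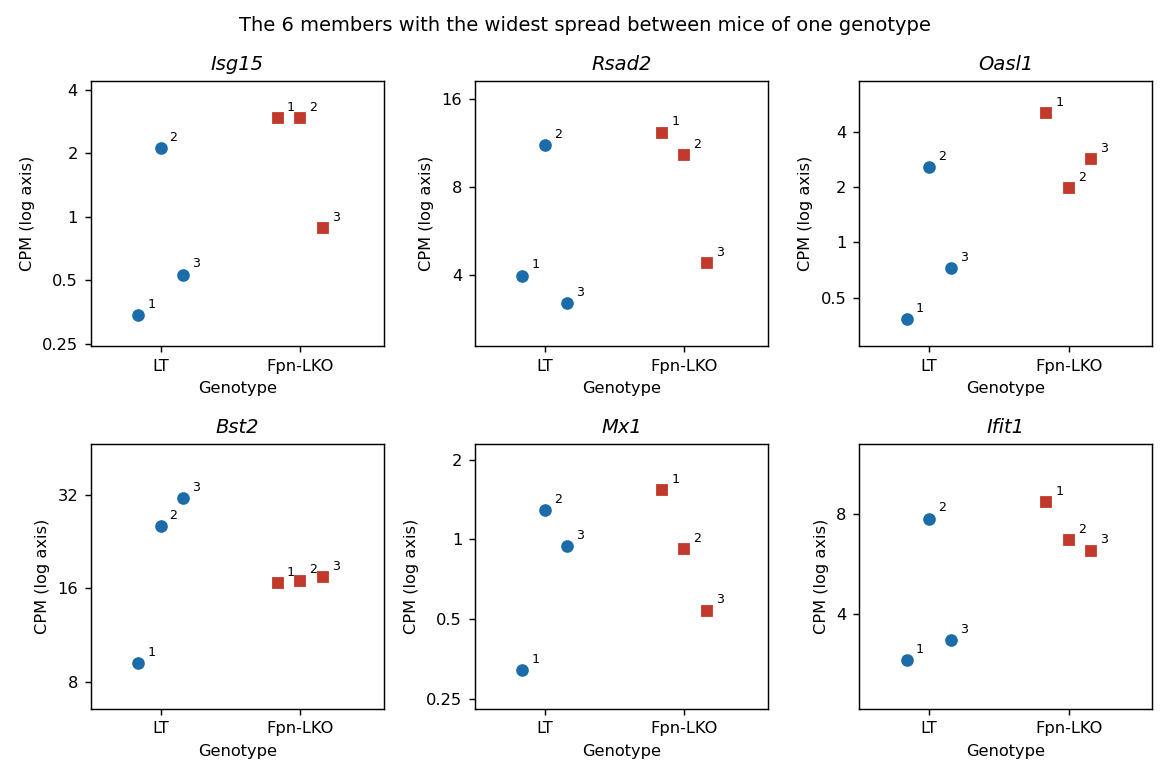
CPM on a log axis in every library for the 6 genes with the largest SD between mice of a genotype on the log2 scale, with replicate numbers at the points. In Isg15 and Rsad2, LT replicate 2 stood with Fpn-LKO replicates 1 and 2, from 2.12 to 2.94 CPM and from 10.3 to 12.3 CPM.

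The globin genes of red blood cells were high in the same libraries as Isg15 and Rsad2. Summed over 5 markers, Hba-a1, Hba-a2, Hbb-bs, Hbb-bt and Alas2, of which all 5 were detected in every library, the level was 407, 941 and 351 CPM across the LT mice and 1006, 1243 and 474 CPM across the Fpn-LKO-labelled libraries (exact two-sided permutation test, p = 0.2). Alas2, the marker among these that is no globin, had another order, with 67.4 CPM in LT replicate 2 below 97.3 CPM in LT replicate 3 and 92.8 CPM in Fpn-LKO replicate 3. The part of these markers in the levels of Isg15 and Rsad2 was not tested. The 3 highest libraries of Igtp, of Zbp1 and of Irgm1 were other sets. Kupffer cell and macrophage markers, 8 of 8 detected in every library, summed to 287, 386 and 296 CPM across the LT mice. Across the Fpn-LKO-labelled libraries the sums were 285, 239 and 510 CPM (exact permutation test, p = 1.0). Every marker of this list except Marco was highest in Fpn-LKO replicate 3, whereas Marco was highest in LT replicate 2, at 27.4 CPM. The part of these cells in the levels of the members was not tested. Markers of lymphocytes and granulocytes had low sums. For T and NK cells 1 of 10 markers was detected in every library, and the sum was 1.33 to 4.78 CPM in LT and 0.257 to 2.03 CPM in the Fpn-LKO-labelled libraries (p = 0.2 by the same exact test). For B cells it was 2 of 4, with 0.532 to 1.27 CPM in LT and 0.566 to 0.991 CPM in the others, and for neutrophils 2 of 4, with Ly6g at 0 throughout and 1.38 to 1.71 CPM against 1.199 to 2.39 CPM. Dendritic cell markers, including those of the plasmacytoid cells that are a major source of type I interferon, were detected for 4 of 6 and summed to 2.54 to 4.92 CPM in LT and 4.09 to 6.73 CPM in the Fpn-LKO-labelled libraries (exact p = 0.4), and the 5 sinusoidal endothelial markers to 244 to 300 CPM and 233 to 249 CPM (exact p = 0.2).

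Many members had their low or high values in the same mice. Taking for each library the median over the 37 genes of log2(CPM + 0.5) minus each gene's mean over the 6 libraries, LT replicate 1 stood at -0.34, LT replicate 2 at 0.15 and LT replicate 3 at -0.13, and the Fpn-LKO-labelled libraries at 0.18, -0.09 and 0.12. LT replicate 1 was the lowest library and Fpn-LKO replicate 1 the highest, while LT replicate 2 was above Fpn-LKO replicate 2. Of the 37 genes, 23 (62.2%) had their lowest value in LT replicate 1, beside 15.7% of all genes tested, and 0 had their highest value there. Fpn-LKO replicate 1 held the highest value of 15 (40.5%), beside 18.3% of all genes, and the lowest of 0. LT replicate 2 held the highest value of 7 (18.9%), near the 16.3% of all genes, and the lowest of 0, beside 15.7%. By role, the median of the antigen processing genes was highest in LT replicate 3 (0.40) and that of the IFIT proteins in LT replicate 2 (0.44) and Fpn-LKO replicate 1 (0.44), so the roles did not follow a common order of mice.

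**Figure D5:**
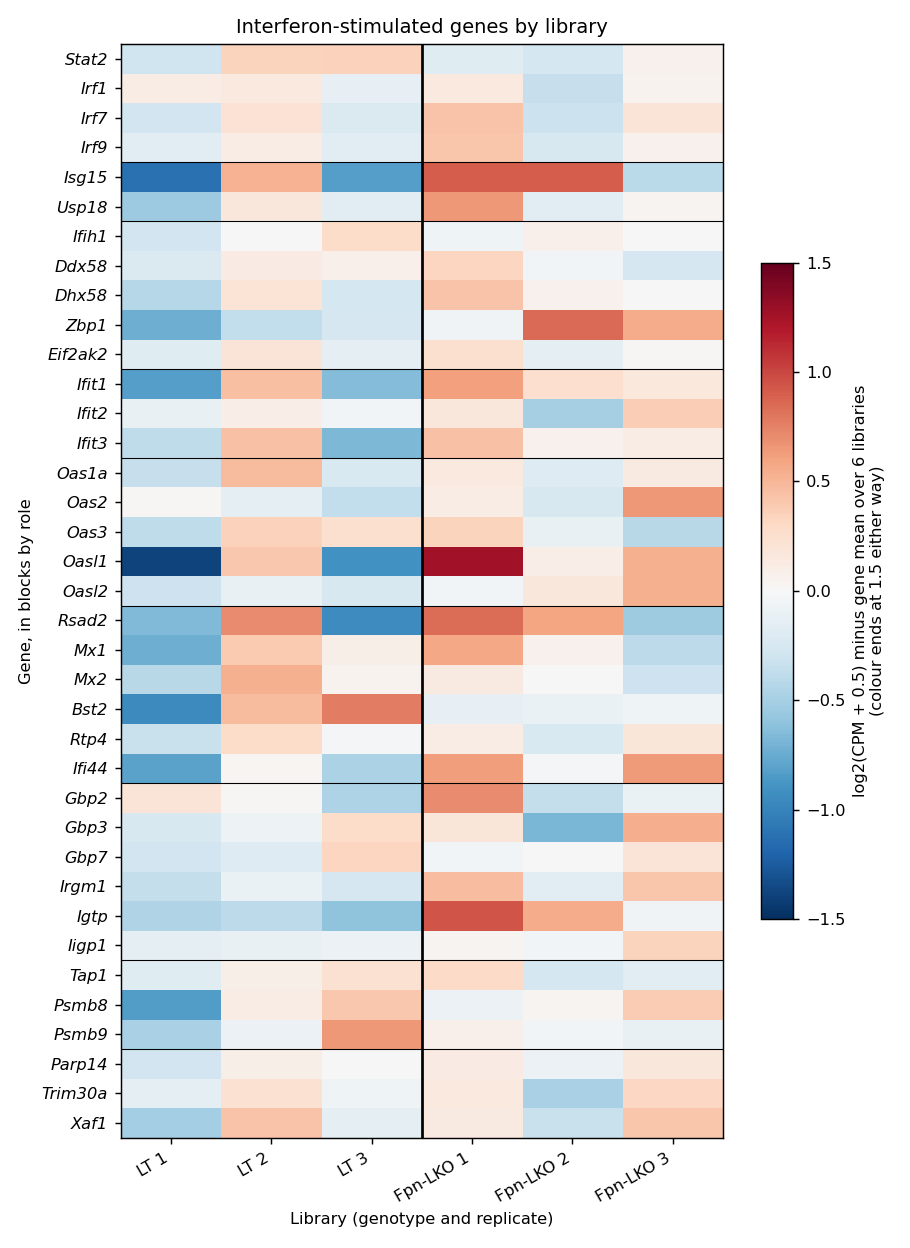
Level of the 37 genes in each library as log2(CPM + 0.5) minus the gene's mean over 6 libraries, in blocks by role, red above and blue below the mean, with LT to the left of the line. The column of LT replicate 1 was mostly blue (23 of 37 genes had their lowest value there) and that of Fpn-LKO replicate 1 mostly red (15 had their highest value there).

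The comparison of genotypes depended on single mice. Without LT replicate 2, 10 genes (Dhx58, Ifi44, Ifit1, Ifit3, Igtp, Irgm1, Isg15, Oasl1, Rsad2 and Zbp1) were higher in the Fpn-LKO-labelled libraries at an unadjusted p below 0.05, against 2.29% of all genes tested without that mouse, and none passed the adjustment. The number of genes without overlap, higher in the Fpn-LKO-labelled libraries, went from 4 to 14 without that mouse, against 9.46% of all genes, and to 10 without Fpn-LKO replicate 2, against 9.92%. Without LT replicate 1, Bst2 and Stat2 were lower at an unadjusted p below 0.05, against 1.92% of all genes. Without this mouse the number of positive estimates went from 29 to 20, and the median log2 fold change from 0.15 to 0.03. It was 0.06 without Fpn-LKO replicate 1, 0.29 without LT replicate 2 and 0.31 without Fpn-LKO replicate 2. Igtp and Zbp1 had an unadjusted p below 0.05 with each mouse left out in turn, whereas Irgm1 and Ifi44 did so only without LT replicate 2 or Fpn-LKO replicate 2.

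The rest of the interferon pathway was read from lists of 95 further genes, of which 80 were tested. None had an adjusted p below 0.05, 8 had an unadjusted p below 0.05 and were higher in the Fpn-LKO-labelled libraries (10%, beside 2.62% of all genes), and 0 were lower (beside 2.19%). Transcripts of the ligands were at or near 0. Of 12 interferon genes, 11 had 0 reads in every library, Ifnb1 among them, and 3 counts, the limit that a count of 0 allows, correspond to between 0.0603 and 0.0725 CPM in a library, for counting error only. Ifng, the gene of interferon-gamma, had 0.254 CPM from 11 reads in LT replicate 2 and 0 reads in the other libraries. The sum of T and NK cell markers was 4.78 CPM in LT replicate 2 and 4.08 CPM in LT replicate 3, which had 0 Ifng reads. Most of it came from Cd4, at 3.81 and 3.60 CPM. Cd8a was also highest in LT replicate 2, and Cd3e and Gzma were highest in LT replicate 1. Cd8b1 and Ncr1 were highest in Fpn-LKO replicate 1, and Cd3d, Cd3g, Klrb1c and Nkg7 in Fpn-LKO replicate 3. Apart from Cd4, these markers had at most 20 reads in a library. The 8 receptors and kinases tested of 9 listed had a median log2 fold change of -0.03, with 0 at an unadjusted p below 0.05 and every interval within 1 in either direction. Ifnar1, a subunit of the type I receptor, was read in all libraries, at 45.5, 41.9 and 42.1 CPM across the LT mice and 43.7, 43.8 and 48.9 CPM across the Fpn-LKO-labelled libraries.

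Of 13 tested genes of upstream sensing and signalling, Myd88, the adaptor of most Toll-like receptors, had an unadjusted p below 0.05, with 10.8, 10.8 and 9.52 CPM across the LT mice and 15.1, 10.6 and 15.6 CPM across the Fpn-LKO-labelled libraries (log2 fold change 0.41, SE 0.18, adjusted p = 0.982 by the same edgeR test). The 8 negative regulators tested had a median of -0.01 and 0 at an unadjusted p below 0.05. Among 51 other interferon-induced genes, 38 estimates were positive (74.5%, beside 49.4% of all genes) and the median was 0.14. At an unadjusted p below 0.05, 7 were higher (13.7%, beside 2.62%), and 8 were higher without overlap (15.7%, beside 5.25%). As the lists were chosen with earlier results of these data known, these shares are a description and not a test. B2m, the light chain of MHC class I, had 875, 786 and 927 CPM across the LT mice and 1235, 1114 and 1258 CPM across the Fpn-LKO-labelled libraries. Its groups were well apart for a log2 fold change of 0.48 (SE 0.15, adjusted p = 0.982). Lgals3bp, a secreted glycoprotein, had 13.8, 19.7 and 14.0 CPM across the LT mice and 23.9, 22.5 and 22.7 CPM across the Fpn-LKO-labelled libraries (log2 fold change 0.54, SE 0.16, adjusted p = 0.982). Ifitm2, which restricts the entry of viruses, had a log2 fold change of 0.35, Gbp6, a further guanylate-binding protein, of 0.78, and Samd9l, a growth and antiviral factor, of 0.44, each with an adjusted p of 0.982.

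Counts of several members are uncertain, because the authors' counting could have split reads between near-identical copies. In the GENCODE transcripts, Ifit3 was 97.8% identical to Ifit3b over 97.4% of its length, and Oas1a was 97.6% identical to Oas1g over 98.7%. Isg15 had an unnamed copy at 95.2% over 63.8% of its length, Trim30a matched Trim30d at 90.1% over 45.6%, and Mx1 and Mx2 matched each other at 94.8% over 27.2% and 38.1% of their lengths. The spans of 11 members overlapped another gene in the RefSeq annotation, among them Ifit1 with Ifit1bl1 over 9121 bases, Usp18 with an lncRNA over 15743 bases, Rtp4 with Masp1 over 1022 bases and Stat2 with Apof over 753 bases. The library kit keeps the strand, and whether the counting used it is not given in the sources used here. Igtp, Zbp1, Irgm1 and Ifi44 had neither such a copy nor an overlapping gene.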

How the data were processed

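Liver RNA of 3 LT and 3 Fpn-LKO mice was sequenced, and groups and replicate numbers were taken from the labels. The authors aligned reads to mm10 and deposited counts per gene, FPKM and TPM. The submitters' processing notes name bcl2fastq 2.20.0, FastQC 0.11.7, HISAT2 2.1.0, Bowtie2 2.3.4.1 and StringTie 2.1.3b, without their roles. The methods describe a total RNA kit with removal of ribosomal RNA, whereas the labels name an mRNA kit. The counts were used as deposited by the authors, without normalization. The deposited FPKM values, scaled to length and depth, were not used in a test. The TPM values deposited by the authors gave levels per length and an alternative test on the log2 scale.

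As in the study's methods, a gene was dropped if more than 1 library had 0 reads for it, which kept 17274 of 45777 genes (22544 had no read at all). Counts were scaled by TMM and tested with edgeR 4.0.16 (quasi-likelihood test) in R 4.3.3, with Benjamini-Hochberg adjusted p-values over the genes kept. Standard errors came from the F statistic and 95% intervals from its degrees of freedom. The common biological coefficient of variation was 0.275. Total counts of 43086184 to 47778683 made counting error small beside this for all but the lowest genes. The quasi-likelihood p-values weighed the difference between genotypes against the spread between mice, which was estimated with information shared across genes. Identifiers were matched to RefSeq (45679 of 45777), which gave the GRCm38 coordinates. BLAST 2.17.0 searched for copies (identity from 90%, 100 bases and 20% of the transcript).

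The alternatives changed the scaling (RLE), the test (DESeq2 1.42.0, Wald, with independent filtering off, or edgeR's exactTest), the filter (1 read in any library, or filterByExpr), the model (replicate number added as a block) or the unit (limma 3.58.1 on TPM with 1 or 0.1 added before log2, where the mean TPM reached 1), or left out a mouse. The fit was tested on simulated counts. The members and lists were chosen with earlier results of these data known. Values per library are given for members with an unadjusted p below 0.05, without overlap between genotypes, among the 3 highest in TPM or the 3 with the largest fold change at 1 CPM or more, and for the first member of a role. Of the pathway lists, up to 5 genes per list with the smallest unadjusted p below 0.05 are named, with Ifnb1 and Ifng. A further gene of these lists is not reported here. Rsad2, Ifit3, Parp14, Ifnar1 and Cd4 were given per-library values after these had been seen.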

Additional observations from a re-analysis of the deposited data

How the results depend on the processing

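Over all genes, the number with an adjusted p below 0.05 went from 4 to 72 with DESeq2's Wald test, 63 with exactTest, 0 with the replicate number as a block and 7 with limma on log2(TPM + 0.1), and to between 0 and 6 with a mouse left out. The cause was not tested. Of the 37 interferon-stimulated genes, 0 were called in any setting except DESeq2 and exactTest, which called 1 each (Igtp). The number higher at an unadjusted p below 0.05 went from 4 to 2 with the replicate block (Igtp and Zbp1), beside 2.77% of all genes. It went to 5 with DESeq2 (beside 3.04%), 5 with exactTest (beside 2.55%) and 6 with limma on log2(TPM + 1) (beside 3.80%). With a mouse left out it lay between 2 and 10, beside 2.25% to 3.22%. The number lower lay between 0 and 2, beside 1.32% to 2.38% of all genes with a mouse left out. With a mouse left out, members without overlap between the genotypes numbered 4 to 14 higher, beside 9.46% to 11.1% of all genes. Those lower numbered 0 to 2, beside 9.37% to 11.2% (11.1% for the 2 without LT replicate 1). With all mice and scaled counts, 4 were higher with TMM (beside 5.25%) and 4 with RLE (beside 5.4%). In these settings 0 were lower, beside 5.34% and 5.18%. Over all alternatives, the median log2 fold change lay between 0.03 and 0.31. Of the 95 further pathway genes 0 were called in every setting, which were applied to these genes after the data had been seen. Limma on log2(TPM + 1) could not test 4 of the 37 genes (Oas2, Oas3, Oasl2 and Mx1), moved the median of all genes to 0.08, and placed 3.80% of all genes higher and 1.15% lower at an unadjusted p below 0.05, against 2.62% and 2.19% with counts. On TPM, 6.85% of all genes were higher without overlap and 2.3% lower, with 6 and 0 of the 37. Of the 37, 16 kept the sign of their estimate in all 14 alternatives and 2, Oas2 and Oasl2, in the 12 that tested them, and none changed sign while past the threshold. The replicate numbers showed no clear pairing of the mice. The deviations of same-numbered libraries correlated at 0.13, -0.0095 and 0.04 across genes, and those of different-numbered libraries at -0.098 to 0.061. Such correlations cannot settle whether mice shared a litter or a preparation. The block changed no other call. Genes under about 1 CPM, such as Oas3 with 15 to 42 reads per library, have wide intervals at this depth.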
